A study of Mus musculus with 68 samples.

Results

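The genes described are 6 transcription factor genes of the pharyngeal pouches and their surroundings: the paired box genes Pax1, Pax9 and Pax8 and the NK2 homeobox genes Nkx2-3, Nkx2-5 and Nkx2-6. They were chosen by name, and all 6 were found among the 21948 genes of the deposited table and among the 18428 genes kept for testing. RNA had been sequenced from pharyngeal arch 1 (PA1) and pharyngeal arch 2 (PA2) of single mouse embryos of the cross CBA/Ca/J x C57BL/10. The 68 libraries form 16 groups: each arch from embryos labelled wildtype or Hoxa2-/-, at E9.0 and E9.5 and, a day after each, at E10.0 and E10.5, with 3 to 5 libraries in a group. All groups share strain, dissection and library method, and the labels do not describe how the Hoxa2-/- allele was made. The design text names both arches of 1 embryo as the unit, and 33 of the 35 embryos gave both arches.

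The pharyngeal pouches are pockets of the foregut endoderm that grow out between the arches and later give rise to the thymus, the parathyroids and other glands. Pax1 and Pax9 are closely related factors that mark pouch endoderm, and Pax9 is needed for the glands that come from the pouches. Nkx2-6 and Nkx2-5 are expressed in the floor of the pharynx, and Nkx2-5 is also a core factor of the heart. Nkx2-3 is a pharyngeal relative of both, and Pax8 is known for its roles in the thyroid, the kidney and the inner ear. PA1 gives rise mainly to the jaws and PA2 to parts of the hyoid and the middle ear.

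Library depth ran from 8912251 to 20619153 reads, recovered from the deposited values, so that 3 reads corresponded to between 0.14 and 0.328 CPM (read counts scaled to library size). A gene listed at 0 may therefore lie anywhere up to that level, and PCR reads without molecular identifiers give limits that cover counting error only. Hoxa2, the gene named in the label, was not lower in PA2 libraries labelled Hoxa2-/-: at E10.0 it reached 97.7 ± 13.3 CPM (SD, n = 5) against 47.5 ± 4.49 CPM (SD, n = 5) in wildtype. This goes against a label read as loss of the transcript, so the groups are called by their label throughout. The 24 wildtype libraries outside E10.0 also stood apart from the other 44: 17 genes were higher and 2 were lower in them with no overlap, among them Ski at 26.3 to 108 CPM against 9.28 to 22.8 CPM. Label and this division of the libraries cannot be told apart at those stages, whereas at E10.0 both labels lie on the same side of it. In whole arches, fewer cells of a type and less RNA per cell cannot be told apart.

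Positions and strands are those of mm10 (GRCm38) in GENCODE M21. Pax1 (ENSMUSG00000037034) spans chr2:147361925-147393295 on the plus strand, and Pax8 (ENSMUSG00000026976) spans chr2:24420560-24475599 on the minus strand. Pax9 (ENSMUSG00000001497) spans chr12:56691767-56712822 on the plus strand. Nkx2-3 (ENSMUSG00000044220) spans chr19:43612325-43615892 on the plus strand, Nkx2-5 (ENSMUSG00000015579) chr17:26838664-26845009 on the minus strand and Nkx2-6 (ENSMUSG00000044186) chr14:69171802-69175518 on the plus strand. The counting is not stated to use strand, and 4 of the 6 genes share bases with a gene on the opposite strand. Slc25a21, which shares 189 bases with Pax9, was the most abundant of these partners in the table, at 0.596 to 23.6 CPM. Reads from such stretches cannot be assigned to 1 gene without strand, so part of a Pax9 value may be Slc25a21 RNA.

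Promoter windows of 250 bases before to 50 bases after the start were matched for 5 members in the RefSeq table of GRCm38.p6. They are shown for the related pair Pax1 and Pax9, whose levels between arches and stages are compared below, and for Nkx2-5, the member whose deviations followed those of a heart muscle list most closely. Capitals mark matches to the letters TNAAGTG (an NK2 homeodomain motif), TGATNNAT (a Hox and Pbx motif) and TGACAG (a Meis motif), searched on both strands. The windows are Pax1 at chr2:147364744-147365043 (plus strand), Pax9 at chr12:56695221-56695520 (plus strand) and Nkx2-5 at chr17:26841516-26841815 (minus strand), each written 5′ to 3′ along the gene.
Pax1: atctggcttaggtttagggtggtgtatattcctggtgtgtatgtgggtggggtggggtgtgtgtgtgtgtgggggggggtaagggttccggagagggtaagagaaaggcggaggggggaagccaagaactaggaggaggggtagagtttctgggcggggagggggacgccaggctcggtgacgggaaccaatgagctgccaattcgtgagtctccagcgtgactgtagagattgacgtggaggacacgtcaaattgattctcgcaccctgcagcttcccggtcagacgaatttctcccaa
Pax9: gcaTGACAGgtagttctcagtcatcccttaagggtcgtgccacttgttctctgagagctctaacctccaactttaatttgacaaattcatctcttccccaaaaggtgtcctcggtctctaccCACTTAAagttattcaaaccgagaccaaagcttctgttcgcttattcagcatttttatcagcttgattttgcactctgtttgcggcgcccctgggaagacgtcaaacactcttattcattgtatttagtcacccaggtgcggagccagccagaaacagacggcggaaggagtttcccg
Nkx2-5: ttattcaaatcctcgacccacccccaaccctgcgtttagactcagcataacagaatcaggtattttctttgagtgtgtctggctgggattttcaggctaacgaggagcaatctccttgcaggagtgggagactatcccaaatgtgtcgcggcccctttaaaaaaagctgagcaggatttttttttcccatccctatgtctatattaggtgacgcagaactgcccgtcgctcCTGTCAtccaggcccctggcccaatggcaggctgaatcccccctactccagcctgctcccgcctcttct
The Pax9 window holds CACTTAA, the NK2 letters on the opposite strand, from position -128 relative to the start, and TGACAG from position -247. The Nkx2-5 window holds CTGTCA, the Meis letters on the opposite strand, from position -19. No match to the 3 motifs was found in the Pax1, Pax8 and Nkx2-3 windows. The RefSeq starts used for Pax1, Pax9 and Nkx2-5 lie inside the GENCODE spans given above, downstream of their 5′ ends. Sequence around those 5′ ends was not searched. Of 32851 windows of this length, 11.5% held the NK2 letters, 8.85% the Hox and Pbx letters and 19.2% the Meis letters, so that matches are common among promoters of any kind.

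The first question was how the members differ between the arches. All 6 were higher in PA2 than in PA1 at E9.0 under both labels. For 3 of them, Pax1, Pax9 and Nkx2-6, this held at each of the 4 stages and for either label. Differences were tested with limma on log2(CPM + 1), with Benjamini-Hochberg adjustment over the 18428 genes and a threshold of 0.05, and a log2 difference below is on that scale, which understates changes of low genes. Of 24 tests in wildtype, 18 passed, all higher in PA2: 6 of the 6 members at the first stage, then 5, 4 and 3. Higher in PA2 among all genes tested were 10.2%, 12.7%, 4.51% and 0.868% at these stages. With the Hoxa2-/- label 18 of 24 passed as well, again 6, 5, 4 and 3 by stage and all higher in PA2, where 12.1%, 6.12%, 3.13% and 0.982% of all genes were. Within embryos, Pax1, Pax9 and Nkx2-6 were higher in PA2 than in PA1 in 33 of 33, Pax8 in 31, Nkx2-5 in 27 and Nkx2-3 in 25. The shares of all genes that were higher in PA2 in as many embryos, or without overlap between arches, were not counted.

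**Figure D1:**
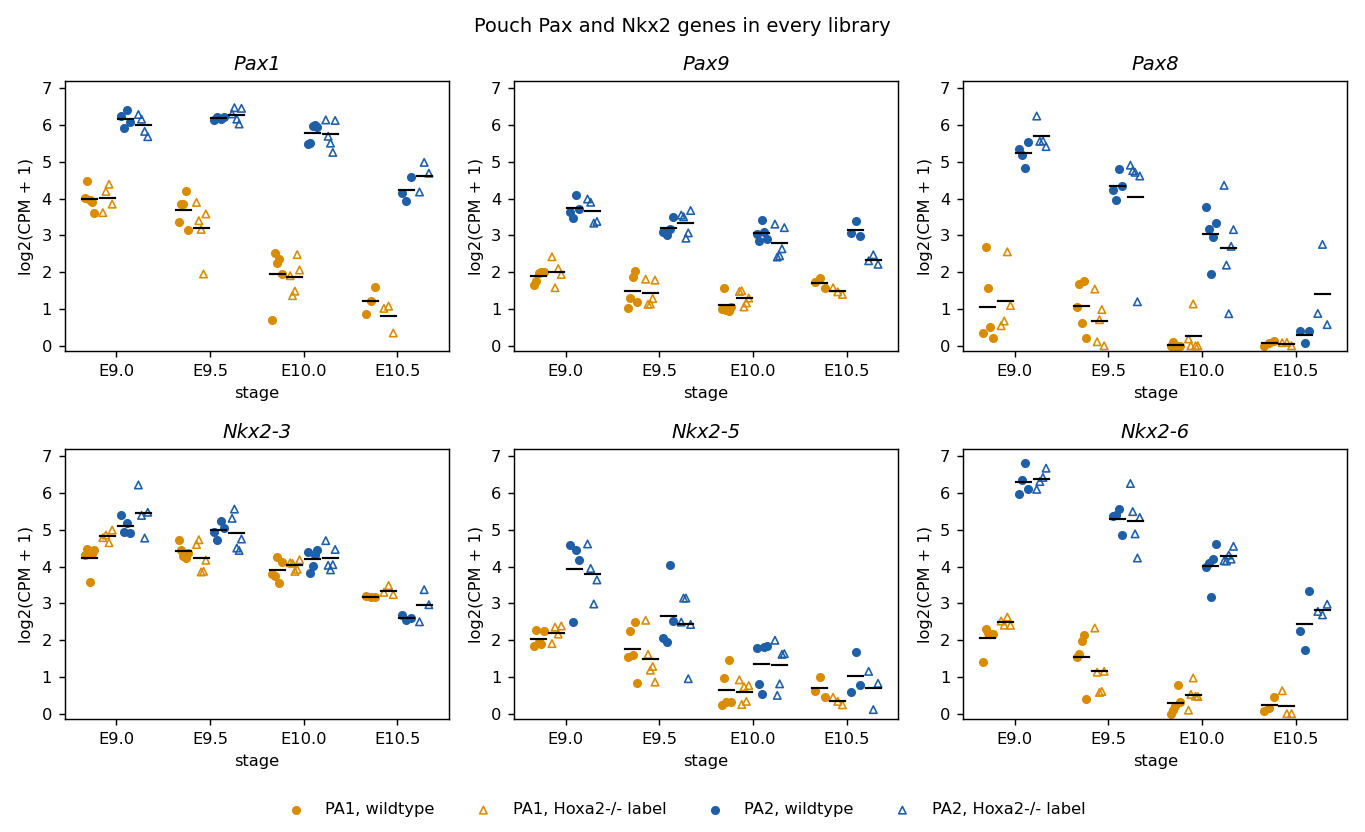
Level of each gene in every library as log2(CPM + 1) (vertical axis) by stage (horizontal axis), with PA1 in orange, PA2 in blue, wildtype as filled circles, the Hoxa2-/- label as open triangles and black bars as group means. Pax1, Pax9 and Nkx2-6 show PA2 above PA1 at every stage, and at E10.5 the arches overlap for Nkx2-5 under both labels, for Pax8 in wildtype and for Nkx2-3 under the Hoxa2-/- label.

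Pax1 was higher in PA2 throughout. Wildtype PA2 libraries held 74.9, 59.8, 84.6 and 66.8 CPM at E9.0 and 69.9, 74.0, 71.4 and 74.2 CPM at E9.5. By E10.0 they held 44.3, 44.6, 62.1, 62.6 and 61.2 CPM, and by E10.5 16.9, 14.4 and 23.0 CPM. Wildtype PA1 libraries held 15.2, 21.3, 14.6, 14.1 and 11.2 CPM at E9.0. PA1 stayed far below: 9.41, 13.5, 13.4, 17.6 and 7.89 CPM at E9.5, then 0.636, 4.71, 3.76, 4.10 and 2.88 CPM, and 0.817, 1.32 and 2.03 CPM at the last stage. No PA1 library reached any PA2 library of its own label and stage at any of the 4 stages, under either label. The wildtype log2 difference, PA2 minus PA1, was, in the order of the stages, 2.17 (SE 0.27), 2.51 (SE 0.27), 3.83 (SE 0.26) and 3.00 (SE 0.33), with the highest limma adjusted p at 1.4e-08. The Hoxa2-/- label gave 1.98, 3.09, 3.89 and 3.81. PA2 libraries of that label held 77.2, 70.6, 55.9 and 50.5 CPM at E9.0 and 17.2, 30.7 and 24.9 CPM at E10.5, which overlapped the wildtype libraries at both stages.

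Pax9, the relative of Pax1, was also higher in PA2 throughout. Per exonic kilobase it was the lowest member in wildtype PA2 at E9.0, at 2.48 ± 0.52 CPM (SD, n = 4). Wildtype PA2 libraries held 11.5, 10.2, 16.3 and 12.3 CPM at E9.0 and 7.56, 7.11, 8.08 and 10.4 CPM at E9.5. A day later the values were 7.28, 6.20, 9.61, 7.50 and 6.49 CPM at E10.0, and 7.35, 9.59 and 6.87 CPM at E10.5. Wildtype PA1 held 2.14, 2.39, 2.97, 3.04 and 3.04 CPM at E9.0 and 2.34, 2.58 and 1.98 CPM at E10.5. The arches did not overlap at any stage under either label, and the wildtype log2 difference was 1.85 (SE 0.19), 1.72 (SE 0.19), 1.95 (SE 0.18) and 1.43 (SE 0.23) from the earliest to the latest stage. For the Hoxa2-/- label it was 1.64, 1.92, 1.51 and 0.85, the last with a limma adjusted p of 0.044 that did not pass without any 1 of the 6 libraries of that comparison (adjusted p 0.085 to 0.21). It was also lost with 5 CPM added (0.41, limma adjusted p = 0.15) and in edgeR (1.15, adjusted p = 0.063), and with no filter or median-of-ratios scaling the limma adjusted p was 0.050 and 0.051, just above the threshold.

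Pax1 relative to Pax9 was compared within each library as the difference of their log2(CPM + 1) values, so that most of a change shared by both genes drops out. At E9.0 the ratio did not differ between arches beyond its spread: 2.43 ± 0.13 (SD, n = 4) in wildtype PA2 and 2.11 ± 0.43 (SD, n = 5) in PA1, with an exact permutation p adjusted over 16 tests of 0.24. With 5 CPM added in place of 1 that difference moved from 0.32 to 0.75 and passed. At E10.0 it was 2.73 ± 0.25 (SD, n = 5) in wildtype PA2 and 0.85 ± 0.67 (SD, n = 5) in PA1 (adjusted exact permutation p = 0.021), and under the Hoxa2-/- label 2.94 ± 0.25 (SD, n = 5) and 0.56 ± 0.53 (SD, n = 5) (adjusted exact permutation p = 0.021). At E9.5 the difference between arches was 0.79 in wildtype (adjusted exact permutation p = 0.028) and 1.17 under the Hoxa2-/- label (adjusted exact permutation p = 0.021). By E10.5 the ratio was -0.49 ± 0.47 (SD, n = 3) in wildtype PA1, while PA2 stood at 1.08 ± 0.53 (SD, n = 3). Under the Hoxa2-/- label it was -0.67 ± 0.34 (SD, n = 3) in PA1 and 2.29 ± 0.36 (SD, n = 3) in PA2, a difference of 2.95. At this stage 3 against 3 libraries cannot give an exact p below 0.1. Of the 16 ratio tests 10 passed. With the arches paired by embryo none of them did, since exchanging signs over at most 5 pairs cannot give a p below 0.0625.

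**Figure D2:**
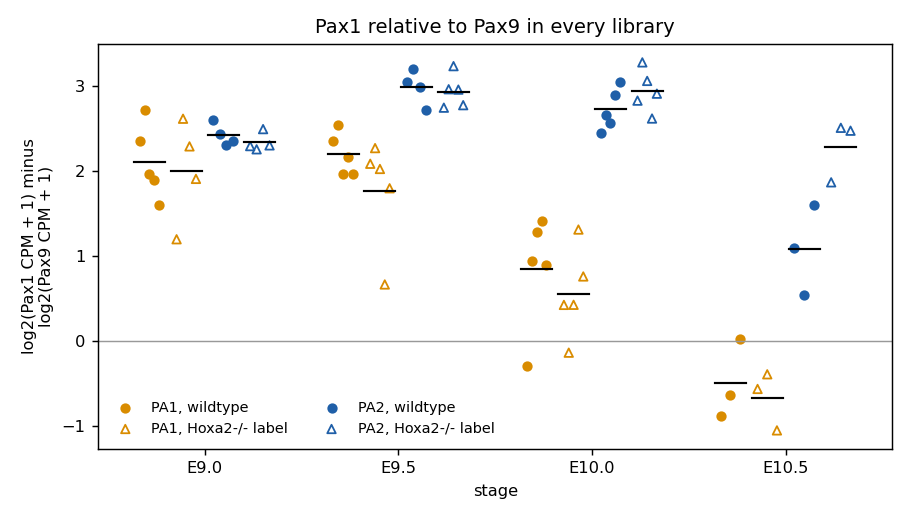
Pax1 relative to Pax9 in every library, as the difference of their log2(CPM + 1) values (vertical axis), by stage (horizontal axis), with PA1 in orange, PA2 in blue, wildtype filled and the Hoxa2-/- label open, and black bars as group means. The arches overlap at E9.0 and are apart at E10.0, where wildtype PA2 averages 2.73 and PA1 0.85.

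Nkx2-6, the pharyngeal relative of the heart gene Nkx2-5, had with Pax8 the largest differences between arches at E9.0. Wildtype PA2 libraries held 61.4, 80.3, 113 and 68.2 CPM at E9.0 and 40.3, 41.2, 46.7 and 28.1 CPM at E9.5. The level was 14.9, 16.2, 8.08, 17.5 and 23.4 CPM at E10.0, and 3.78, 2.32 and 9.04 CPM were left at E10.5. Wildtype PA1 held 1.67, 3.96, 3.54, 3.52 and 3.49 CPM at E9.0, and no more than 0.729 CPM in any library of E10.0 or E10.5. All PA2 libraries exceeded all PA1 libraries of their label and stage. The log2 difference in wildtype was 4.26 (SE 0.30), 3.76 (SE 0.30), 3.73 (SE 0.28) and 2.21 (SE 0.37) by stage, and for the Hoxa2-/- label 3.89, 4.08, 3.77 and 2.61, with the highest limma adjusted p at 2.9e-05. Per exonic kilobase Nkx2-6 was the highest member in wildtype PA2 at E9.0, at 71.1 ± 20.1 CPM (SD, n = 4) against 15.99 ± 2.74 for Nkx2-3 and 15.9 ± 2.38 for Pax1. In wildtype PA1 at that stage Nkx2-3 was the highest, at 8.68 ± 2.00 CPM per exonic kilobase (SD, n = 5), and Nkx2-6 stood at 2.85 ± 0.79.

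Pax8 was abundant in PA2 at E9.0 and nearly gone by E10.5. Wildtype PA2 libraries held 39.7, 35.5, 27.5 and 45.9 CPM at E9.0 and 17.8, 14.5, 27.0 and 19.3 CPM at E9.5. At E10.0 they held 12.7, 8.05, 2.84, 6.73 and 9.16 CPM, and the last stage gave 0.310, 0.0527 and 0.333 CPM. PA1 was low and uneven, at 0.261, 5.42, 1.95, 0.414 and 0.147 CPM in wildtype at E9.0, and at E10.0 it was listed at 0 in 4 of 5 wildtype libraries with 1 read in the other. The wildtype log2 difference was 4.18 (SE 0.52) at E9.0, 3.26 (SE 0.52) at E9.5 and 3.02 (SE 0.49) at E10.0, with the highest limma adjusted p at 9.3e-06, but since PA1 was at its floor the last value depends on the added 1 CPM. At E10.5 it was 0.22 (SE 0.63, limma adjusted p = 1) with wildtype libraries of both arches at 0.333 CPM or below. With the Hoxa2-/- label the difference was 4.48, 3.37 and 2.39 at the first 3 stages and 1.35 (SE 0.63, limma adjusted p = 0.43) at E10.5. There PA2 held 0.491 to 5.76 CPM and PA1 at most 0.0653 CPM, with no overlap, and on recovered reads the difference was 5.40 (edgeR adjusted p = 0.16) and 5.69 (DESeq2 adjusted p = 0.021), sizes that depend on PA1 libraries with at most 1 read.

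Single PA2 libraries stood apart for Pax8. At E9.5 of the Hoxa2-/- label replicate 4 held 1.29 CPM where the other 4 held 23.5 to 29.1 CPM. The same library also had the lowest Nkx2-5 (0.934 CPM), Nkx2-6 (17.8 CPM), Pax1 (64.4 CPM) and Nkx2-3 (20.7 CPM) of its group. Its Pax9 (7.40 CPM) was not the lowest. Nkx2-1, the thyroid and lung factor, was listed at 0 in that library and stood at 5.52, 8.99, 7.40 and 7.08 CPM in the others. At E10.5 of the same label replicate 2 held 5.76 CPM of Pax8 and 2.32 CPM of Nkx2-1, while replicates 1 and 3 held 0.839 and 0.491 CPM of Pax8 and 0.381 and 0.0701 CPM of Nkx2-1. Of all genes that met the naming rule, Nkx2-1 was the one whose deviations from the group means followed those of Pax8 most closely (Pearson r = 0.79 over 68 libraries, given as a description). The summed level of the thyroid list (Nkx2-1, Hhex, Foxe1, Tshr and Tg) ran from 43.6 to 88.9 CPM in wildtype PA2 at E9.0 and from 15.9 to 17.5 CPM by E10.5, and its deviations followed those of Pax8 with r = 0.66 over 33 PA2 and 0.19 over 35 PA1 libraries. In PA2 the list of Pax and Nkx2 relatives, which holds Nkx2-1 too, followed Pax8 more closely (r = 0.82), as did the endoderm (0.72) and epithelial (0.68) lists. Thyroglobulin, Tg, the product of mature thyroid cells, did not exceed 1.28 CPM in any library, and the part of thyroid rudiment cells in the Pax8 differences was not tested.

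Nkx2-5 was higher in PA2 at E9.0, in libraries that also held heart muscle RNA. Wildtype PA2 at E9.0 held 23.2, 4.65, 20.7 and 17.2 CPM, against 2.56, 3.85, 2.87, 2.69 and 3.78 CPM in PA1, so the arches did not overlap. The summed level of 7 heart muscle genes (Myh6, Myh7, Actc1, Tnnt2, Tnni1, Myl7 and Myl4) in the same PA2 libraries was 1299.7, 64.0, 1186.6 and 1199.5 CPM: the library lowest for the list was the lowest for Nkx2-5. At E9.5 wildtype PA2 held 3.13, 2.89, 15.5 and 4.77 CPM of Nkx2-5 and 61.1, 73.4, 1036.6 and 242 CPM of the heart muscle list, again highest in the same library. Deviations of Nkx2-5 from the group means followed those of the list with r = 0.85 over 33 PA2 libraries and 0.68 over 35 PA1 libraries, the heart progenitor list followed it as closely in PA2 (r = 0.86), and Rbm24 and Gata4, both known in heart development, were the genes most like it (r = 0.87 and 0.82). In PA2 the lists of Pax and Nkx2 relatives (0.72), thyroid (0.72), epithelium (0.63), endoderm (0.63) and endothelium (0.60) followed Nkx2-5 as well. At E10.5 the heart muscle list was at 6.45 to 8.17 CPM in wildtype PA1 and 7.35 to 9.80 CPM in wildtype PA2. No gene of the heart muscle list was at 0 in more than 1 of the 68 libraries.

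The Nkx2-5 difference between arches was 1.89 (SE 0.40, limma adjusted p = 0.00038) in wildtype and 1.59 (SE 0.42, limma adjusted p = 0.0036) under the Hoxa2-/- label at E9.0. Without the 10 libraries that held over 300 CPM of the heart muscle list, it was 0.46 (adjusted p = 0.62) in wildtype and 0.78 (adjusted p = 0.30) under the Hoxa2-/- label, where 1 PA2 library a label was left and was assumed to vary like the others. The one left in wildtype held 53786 CPM of the red cell list, against a group median of 3610, and the one left for the Hoxa2-/- label 217 CPM of the yolk sac list, against a median of 8.13. Each E9.0 value in PA2 without the libraries rich in heart muscle RNA, for any member, rests on these. At later stages the difference did not pass in limma: in wildtype it was 0.90 (adjusted p = 0.087), 0.70 (adjusted p = 0.31) and 0.33 (adjusted p = 1) in order of stage. The E9.5 value passed without wildtype PA2 replicate 2 (1.13, adjusted p = 0.044) or PA1 replicate 4 (1.09, adjusted p = 0.048), and that of the Hoxa2-/- label, 0.94 (adjusted p = 0.11), passed without PA1 replicate 1 (1.197, adjusted p = 0.037) or PA2 replicate 4 (1.31, adjusted p = 0.013). With the arches paired by embryo the wildtype E9.5 value was 0.94 with a limma adjusted p of 0.040, and on recovered reads it was 1.39 with an edgeR adjusted p of 0.042. Relative to Nkx2-6, Nkx2-5 was lower in PA2 than in PA1: the difference of log2(CPM + 1) values was -2.38 ± 1.06 (SD, n = 4) in wildtype PA2 and -0.0095 ± 0.28 (SD, n = 5) in PA1 at E9.0 (adjusted exact permutation p = 0.028), and the stages up to E10.0 passed for both labels. At E10.0 PA1 averaged 0.667 CPM (wildtype) and 0.540 CPM (Hoxa2-/- label) of Nkx2-5, and 0.242 and 0.448 CPM of Nkx2-6. With 1 CPM added the PA1 ratio there was 0.37 and 0.093, and the size of the E10.0 difference depends on that added value.

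Nkx2-3 had the smallest log2 difference between arches of the 6 members at E9.0, under both labels, over all libraries. Wildtype PA2 held 41.2, 29.4, 35.5 and 29.0 CPM at E9.0 and 5.43, 4.85 and 5.10 CPM at E10.5, and PA1 held 19.1, 21.5, 10.97, 19.4 and 20.8 CPM and then 8.11, 8.01 and 7.96 CPM. PA2 was thus above PA1 in all libraries at E9.0 and below it in all libraries at E10.5. The wildtype log2 difference was 0.87 (SE 0.21, limma adjusted p = 0.0018) and 0.58 (SE 0.21, adjusted p = 0.033) at the first 2 stages and 0.30 (SE 0.20, adjusted p = 0.44) and -0.56 (SE 0.25, adjusted p = 0.58) at the last 2, so the lower PA2 level at E10.5 did not pass, except when only the compared groups were fitted (limma adjusted p = 0.045). For the Hoxa2-/- label it was 0.64 (limma adjusted p = 0.025) and 0.67 (adjusted p = 0.020) at the first 2 stages.

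These Nkx2-3 differences rested on few libraries, and with only the compared groups fitted both calls of the Hoxa2-/- label were lost (limma adjusted p 0.16 and 0.15). The wildtype E9.5 call did not hold without PA2 replicate 1, 3 or 5 or PA1 replicate 3 or 4 (limma adjusted p 0.051 to 0.12). With the Hoxa2-/- label the E9.0 value was 0.39 (limma adjusted p = 0.20) without PA2 replicate 1, which held 73.5 CPM against 41.0, 26.4 and 43.6 CPM, and the call was also lost without PA1 replicate 1 or 3 or PA2 replicate 4 (adjusted p 0.050 to 0.073). The E9.5 call of that label was lost without PA2 replicate 1 or 2 or PA1 replicate 3 or 4 (adjusted p 0.066 to 0.12). Without the libraries rich in heart muscle RNA, all 4 Nkx2-3 calls were lost: 0.69 (adjusted p = 0.12) and 0.50 (adjusted p = 0.070) in wildtype, and -0.05 (adjusted p = 0.93) and 0.63 (adjusted p = 0.15) under the Hoxa2-/- label. Foxe1, a forkhead gene of the pharyngeal endoderm and thyroid, was the gene whose deviations followed those of Nkx2-3 most closely (r = 0.75). The thyroid list followed Nkx2-3 with r = 0.81 over 33 PA2 and 0.69 over 35 PA1 libraries. Foxe1 is part of that list and its most abundant gene (median 23.8 CPM, against 6.58 CPM for Hhex), so these values are not independent. In PA2 the lists of Pax and Nkx2 relatives (0.65), epithelium (0.63), endoderm (0.61) and heart progenitors (0.55) followed Nkx2-3 as well.

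**Figure D3:**
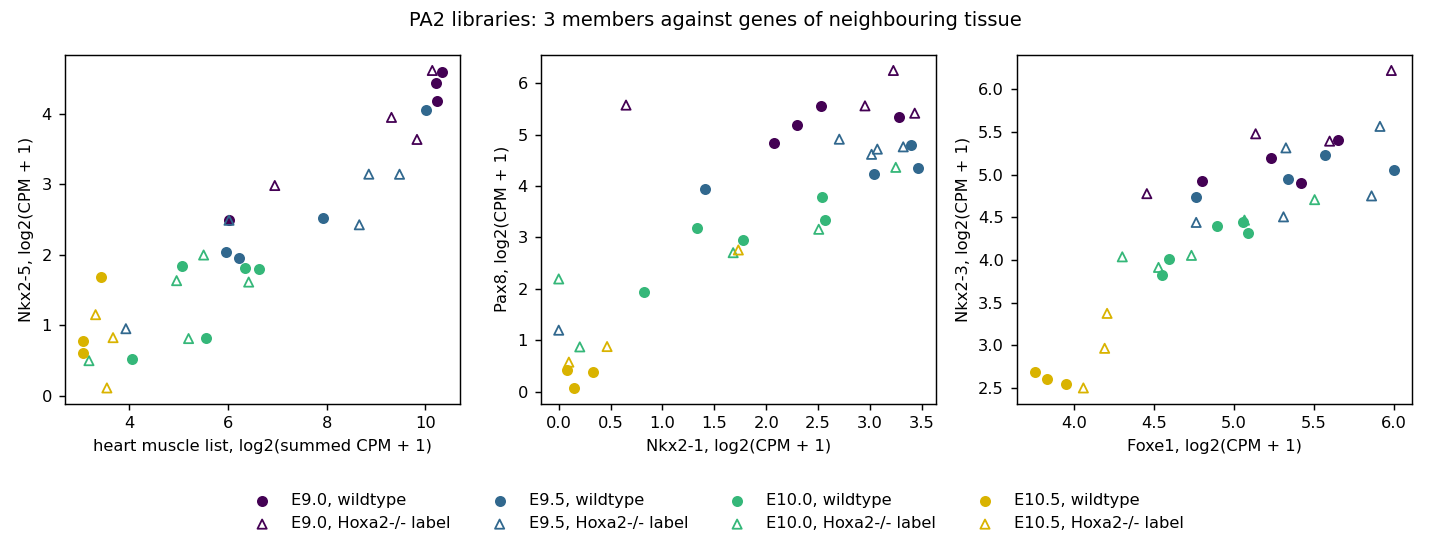
Libraries of PA2, coloured by stage, with wildtype filled and the Hoxa2-/- label open, comparing Nkx2-5 with the summed heart muscle list, Pax8 with Nkx2-1 and Nkx2-3 with Foxe1, all axes as log2(CPM + 1). At E9.0 the library with the least heart muscle RNA of each label also has the least Nkx2-5, and the Pax8 libraries lowest for their stage at E9.5 and E10.0 are low in Nkx2-1.

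**Figure D4:**
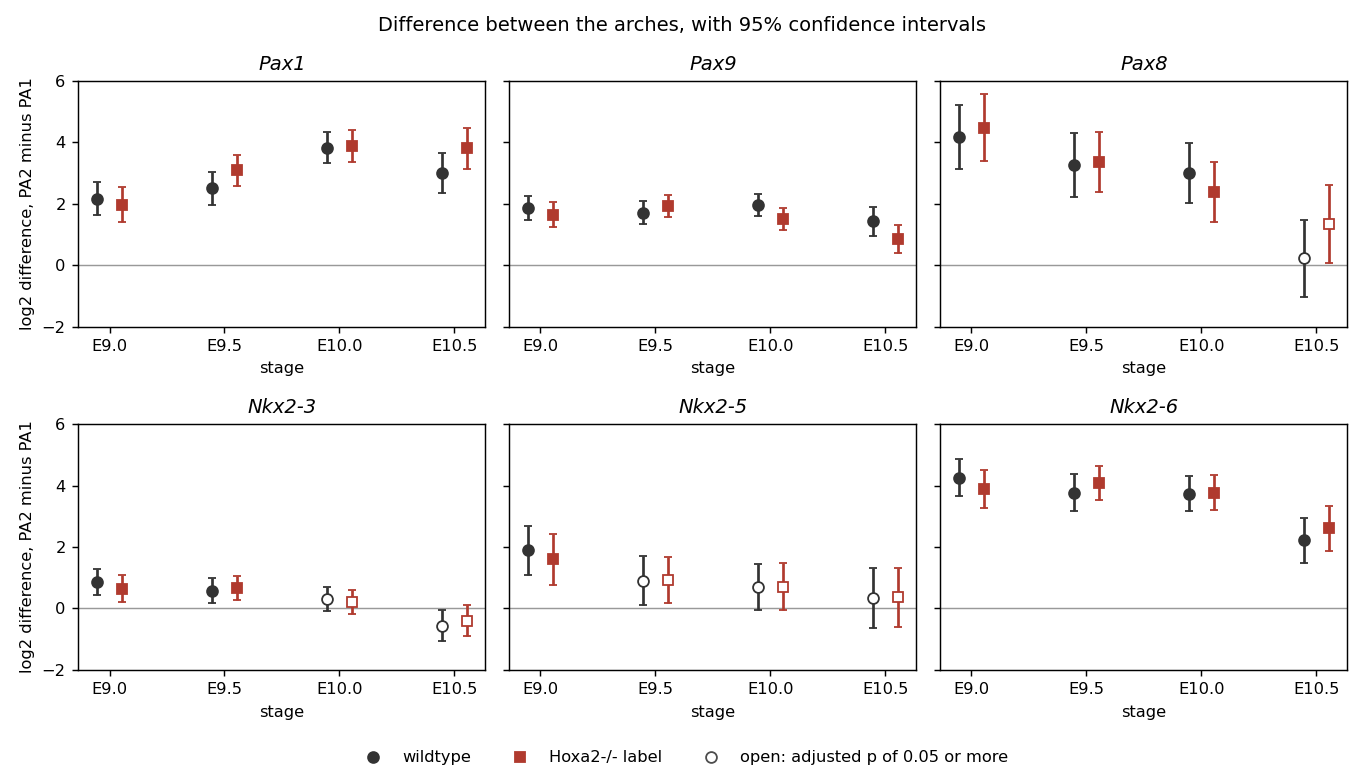
Log2 difference between arches, PA2 minus PA1 (vertical axis), by stage (horizontal axis) for each gene, with 95% confidence intervals from limma, wildtype as circles, the Hoxa2-/- label as squares and open symbols where the adjusted p was 0.05 or more. The value under the Hoxa2-/- label minus that in wildtype ranges from -0.62 to 1.12, the highest for Pax8 at E10.5. Pax1, Pax9 and Nkx2-6 stay above 0 throughout.

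Markers of other cell types differed between the arches as well. At E9.0, 7 of 7 heart muscle and 4 of 8 heart progenitor genes were higher in PA2 under either label, and in wildtype 5 of 5 red cell genes were. Of 6 endoderm genes 2, 3, 2 and 0 were higher in PA2 in wildtype by stage and 3, 4, 1 and 0 for the Hoxa2-/- label. Thyroid genes passed as higher for 2, 4, 3 and 0 of 5 in wildtype and 4, 4, 1 and 0 of 5 for the Hoxa2-/- label. In wildtype at E9.0, 2 of 6 epithelial genes were higher, 3 of 5 surface ectoderm genes and 4 of 6 arch mesenchyme genes were lower, and none of 5 endothelial and 5 yolk sac genes passed. Of 4 neuron, 3 otic and 5 somite genes 1 was higher and 1 lower each, and of 6 branchial muscle genes 1 was higher and 2 were lower. The part of these cell types in the arch differences of the members was not tested, apart from the fits without the libraries rich in heart muscle RNA, in which Pax1, Pax9, Pax8 and Nkx2-6 kept each of their arch calls; at E9.0 these rest on the single PA2 library left for each label, rich in red cell or yolk sac RNA.

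The second question was how levels changed from E9.0 to E10.5. In both arches and under both labels the members that passed were all lower at E10.5, which held for 20 of 24 tests. Among all genes tested, 21.5% were lower in wildtype PA1, 19.4% in wildtype PA2, 16.5% in PA1 and 15.1% in PA2 of the Hoxa2-/- label. In PA2 all 6 members fell: in wildtype the log2 change was -4.94 (SE 0.59) for Pax8, -3.88 (SE 0.34) for Nkx2-6, -2.91 (SE 0.45) for Nkx2-5, -2.49 (SE 0.24) for Nkx2-3, -1.94 (SE 0.31) for Pax1 and -0.59 (SE 0.22) for Pax9, with the highest limma adjusted p at 0.028. The Pax9 call was lost without PA2 replicate 4 of E9.0 or replicate 1 or 3 of E10.5 (adjusted p 0.089 to 0.11) and with 0.25 CPM added (adjusted p = 0.057), and without the libraries rich in heart muscle RNA it was -0.33 (adjusted p = 0.48). For the Hoxa2-/- label the changes in PA2 were -4.30, -3.56, -3.10, -2.52, -1.37 and -1.32 in the same order, and Pax1 there was -1.21 with an adjusted p of 0.050 without the libraries rich in heart muscle RNA.

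In PA1 Pax1 fell by 2.77 (SE 0.29) in wildtype and by 3.20 (SE 0.31) under the Hoxa2-/- label on the log2(CPM + 1) scale. Nkx2-6 fell by 1.83 and 2.28, Nkx2-5 by 1.35 and 1.86 and Nkx2-3 by 1.06 and 1.48 on the log2 scale, with the highest limma adjusted p at 0.0096. With 5 CPM added the wildtype Nkx2-5 change was -0.53 and did not pass (limma adjusted p = 0.065). The order of the members depends on the scale: in edgeR, with no CPM added, wildtype Nkx2-6 fell by 4.14 and Pax1 by 3.45. Pax9 and Pax8 did not pass in PA1: Pax9 was at -0.17 (adjusted p = 0.55) and -0.53 (adjusted p = 0.059), and Pax8 at -0.98 (adjusted p = 0.16) and -1.16 (adjusted p = 0.13). Pax9 of the Hoxa2-/- label passed without PA1 replicate 2 of E9.0 (-0.67, limma adjusted p = 0.022). On recovered reads Pax8 fell in PA1, by 4.76 (edgeR adjusted p = 0.010) in wildtype and by 4.88 (edgeR adjusted p = 0.035) for the Hoxa2-/- label on the log2 scale, where no CPM is added. Between adjacent stages of the Hoxa2-/- label in PA2, Nkx2-6 passed at each of the 3 steps, at -1.14, -0.97 and -1.46, while 6.94%, 2.83% and 0.147% of all genes were lower. Nkx2-3 changed by -0.55 (adjusted p = 0.057), -0.68 (adjusted p = 0.030) and -1.29 (adjusted p = 0.0014) over the same steps. Pax1 in PA2 showed 0.29 (adjusted p = 0.48) from E9.0 to E9.5 and -0.54 (adjusted p = 0.25) from E9.5 to E10.0.

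The heart muscle, heart progenitor and thyroid lists moved in the same direction in PA2. Of 7 heart muscle genes, 7 were lower at E10.5 in PA2 under either label, with a median of -5.26 in wildtype and -4.94 under the Hoxa2-/- label, against a median over all genes of -0.015 and 0.012. Of 8 heart progenitor genes 6 were lower in wildtype PA2, and of 5 thyroid genes 4 were. Epithelial genes were lower too, 5 of 6 in wildtype PA2, while 5 of 5 surface ectoderm genes were higher. The part of these cell types in the fall of the members was not tested.

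Whether the arch difference itself changed with stage was tested as the difference at E10.5 minus that at E9.0. Of 12 tests 6 passed, where 3.35% of all genes passed in wildtype and 7.33% under the Hoxa2-/- label. Nkx2-3 changed by -1.43 (SE 0.33, limma adjusted p = 0.0049) in wildtype and -1.04 (SE 0.34, adjusted p = 0.046) under the Hoxa2-/- label, and the latter was -0.35 (adjusted p = 0.55) without the libraries rich in heart muscle RNA. That call was also lost with 5 CPM added (adjusted p = 0.052), with no filter (adjusted p = 0.051), with only the compared groups fitted (adjusted p = 0.17) and without any of 10 single libraries (adjusted p 0.056 to 0.16): PA1 replicates 1, 2 and 3 and PA2 replicates 1 and 4 of E9.0, and PA1 replicates 1, 2 and 3 and PA2 replicates 1 and 3 of E10.5. Pax1 went the other way, at 1.83 (SE 0.44, adjusted p = 0.0060) under the Hoxa2-/- label and 0.83 (SE 0.43, adjusted p = 0.35) in wildtype. With 5 CPM added these were 0.57 (limma adjusted p = 0.24) and -0.084 (limma adjusted p = 0.94), and in DESeq2 the wildtype change was 1.47 (adjusted p = 0.042). Nkx2-6 changed by -2.05 in wildtype (adjusted p = 0.0053) and Pax8 by -3.95 in wildtype (adjusted p = 0.0015) and -3.14 under the Hoxa2-/- label (adjusted p = 0.014). The latter was -2.72 (limma adjusted p = 0.060) without PA2 replicate 3 of E10.5. Nkx2-5 in wildtype stood at -1.56 (adjusted p = 0.18), and at -2.04 (adjusted p = 0.041) without PA2 replicate 2 of E9.0 and -1.17 (adjusted p = 0.035) with 5 CPM added. For Nkx2-6 and Pax8 PA1 was at or near its floor at E10.5, and tests on recovered reads did not call these changes and partly turned their sign: for Nkx2-6 in wildtype the value was 0.12 in edgeR and 0.20 in DESeq2. Nkx2-3 and, for the Hoxa2-/- label, Pax1 passed in edgeR and DESeq2 as well. With the arches paired by embryo, Pax9 (-0.79, limma adjusted p = 0.042) and Nkx2-6 (-1.28, limma adjusted p = 0.027) of the Hoxa2-/- label passed as well.

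The third question was whether the members differ between the labels. In PA2 1 of 24 tests passed, Pax9 at E10.5, and in PA1 none of 24 did. The share of all genes that passed in PA2 was 14%, 4.48%, 0.0814% and 10.3% by stage (3.85% lower at the last), and in PA1 2.08%, 23.6%, 0% and 3.05%. Pax9 in PA2 at E10.5 held 7.35, 9.59 and 6.87 CPM in wildtype and 3.97, 4.56 and 3.65 CPM under the Hoxa2-/- label, with no overlap, and its log2 difference was -0.81 (SE 0.23, limma adjusted p = 0.017). Over the settings tried on all libraries that value stayed below 0, but the call was lost without wildtype replicate 2 (-0.68, adjusted p = 0.11) or without replicate 3 of the Hoxa2-/- label (-0.75, adjusted p = 0.074). Label and the division of the libraries cannot be told apart at this stage. Ranges of the labels were also without overlap for Pax8 in PA2 at E10.5 and Nkx2-3 in PA1 at E9.0 and E10.5, each higher under the Hoxa2-/- label. In PA1, Nkx2-6 at E9.0 was higher under that label without overlap, and Nkx2-5 at E10.5 was lower. None of these passed, and the share of all genes without overlap was not counted.

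At E10.0, where both labels lie on the same side of that division, no member differed in PA2 beyond its error. The log2 difference was -0.04 (95% interval -0.55 to 0.47) for Pax1, -0.26 (-0.62 to 0.11) for Pax9, -0.38 (-1.36 to 0.60) for Pax8, 0.04 (-0.35 to 0.43) for Nkx2-3, -0.05 (-0.80 to 0.71) for Nkx2-5 and 0.26 (-0.31 to 0.83) for Nkx2-6, with the lowest limma adjusted p at 0.75. The interval was widest for Pax8. The count of members called in PA1 was 0 of 24 in limma, edgeR and DESeq2, with 1 test at an unadjusted p under 0.05 in limma, and the effect of the label in PA2 minus that in PA1 was called for 0 of 24 in limma, edgeR and DESeq2, with 0 tests at an unadjusted p under 0.05 in limma and 0%, 0.0109%, 0.0163% and 0.038% of all genes called by stage.

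**Figure D5:**
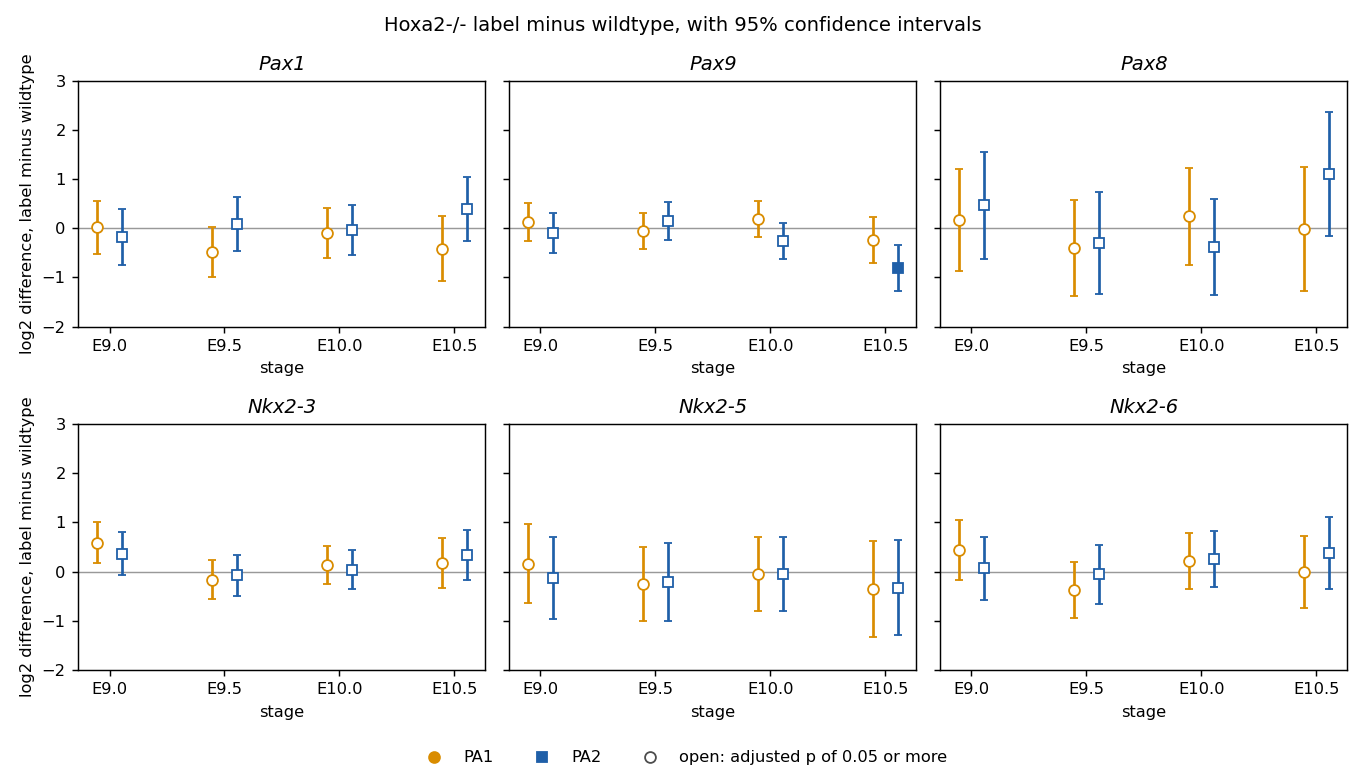
Log2 difference of the Hoxa2-/- label minus wildtype (vertical axis) by stage (horizontal axis) for each gene, with 95% confidence intervals from limma, PA1 as orange circles, PA2 as blue squares and open symbols where the adjusted p was 0.05 or more. Pax9 in PA2 at E10.5 is the filled symbol, at -0.81, and the values at E10.0 all include 0.

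Other genes of pouch development were read from a list of 12 genes, of which 10 were tested. In wildtype, 8, 7, 6 and 2 of the 10 were higher in PA2 and 1 was lower at each stage, and under the Hoxa2-/- label 7, 7, 7 and 5 were higher. Their median log2 difference was 0.95 at E9.0 in wildtype, against -0.0059 over all genes. Fgf3, a growth factor of the pouch endoderm, was at 26.3 ± 1.96 CPM (SD, n = 4) in wildtype PA2 and 0.16 ± 0.10 CPM (SD, n = 5) in PA1 at E9.0, and at 1.07 ± 0.23 CPM (SD, n = 3) in PA2 at E10.5. Fgf15, another growth factor, averaged 12.8 CPM in wildtype PA2 at E9.0, 7.53 CPM at E10.0 and 9.71 CPM at E10.5, a log2 change of -0.37 (SE 0.30, limma adjusted p = 0.34) from the first to the last. For the Hoxa2-/- label it fell by 2.20 on the log2 scale (SE 0.30, limma adjusted p = 4.4e-08); the difference between these changes was not tested, and label and library division cannot be told apart at E9.0 and E10.5. Hoxa3, a Hox gene of the pouches and posterior arches, was higher in PA2 at all stages, by 1.03 to 1.64. Tbx1, a T-box factor that patterns the pouches, was higher in PA2 by 0.84 (SE 0.26), 1.46 (SE 0.26) and 1.41 (SE 0.24) at the first 3 stages in wildtype and stood at 0.80 (SE 0.31, limma adjusted p = 0.35) at E10.5. Of all listed genes, Meox1, a somite and muscle factor, was the one that passed between labels at E10.0 in PA2, at -1.71 (SE 0.33, limma adjusted p = 0.0066). Gcm2 and Foxn1, which mark parathyroid and thymus, did not pass the filter on low values and did not exceed 0.83 and 0.93 CPM. Among the relatives of the members, Pax2, Pax4, Pax5, Pax7, Nkx2-2 and Nkx2-4 were not analysed here.

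Over the 68 libraries the members shared much of their pattern, which describes libraries that differ by arch and stage. Pearson's r of log2(CPM + 1) was 0.92 between Pax1 and Nkx2-6, 0.92 between Pax8 and Nkx2-6, 0.91 between Pax9 and Nkx2-6 and 0.86 between Pax1 and Pax9. Nkx2-3 was the least alike, at 0.42 with Pax9 and 0.56 with Pax1. For deviations from the 16 group means the values among the members lay between 0.20 and 0.50. The gene whose deviations were most like those of Pax1 was Otx2 (0.62), and for Pax9 it was Ctsf (0.59). For Nkx2-6 the closest were Ldha-ps2 (0.64), Aldoa, Gpi1, Pkm and Upp1. Deviations of the summed pouch list followed those of the members only weakly, with r from 0.0094 to 0.17 in either arch. The genes most like Pax1 over the 68 libraries were Hey1 (0.96), Pdlim3, Adgrv1, Plet1 and Cyp1b1, and those most like Nkx2-6 were Pdlim3 (0.96), Klhl14, Cyp1b1, Hs3st1 and Cldn9. Those most like Pax8 were Cystm1, Fgf4, Fgf3, Ctxn3 and Nkx2-6, and those most like Nkx2-5 were Rbm24 (0.96), Myocd, Amph, Rcsd1 and Nexn. For Pax9 they were Ckb, Klhl14, Nkx2-6, Proser2 and Cyp1b1, and for Nkx2-3 Arid3b, Crb3, Lsr, Speg and Ap1m2.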

How the data were processed

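Libraries of both arches had been made with SMART-seq v4 and Nextera XT from dissected tissue and sequenced, per the labels' protocols. The submitters' processing notes name bcl2fastq 2.18, TopHat2 2.1.1, R 3.3.2 and the genome build mm10; the counter, annotation and strand setting are not given in the sources used here. The authors deposited 1 signal value per gene and library, a read count scaled to library depth (CPM) and rescaled by a library factor, so that columns sum to between 926298 and 1051959. CPM had been foreseen as the unit, and the test fits the rescaled values too. Whole reads were recovered for 100% of values within 0.01 reads.

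Members were matched by symbol, with 21921 of 21948 identifiers paired with one. Genes with at least 1 CPM in at least 3 libraries were tested with limma 3.58.1 (R 4.3.3, trend) on log2(CPM + 1) with 16 group means, Benjamini-Hochberg adjustment over all 18428 genes and a threshold of 0.05. Ratios within libraries used two-sided exact permutation tests (Python 3.11.15, numpy 2.4.6, scipy 1.17.1). Confidence intervals are 95% intervals from limma. Figures were drawn with matplotlib 3.10.9. The limma and edgeR steps and the permutation test were tested on simulated data.

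The members, gene lists and tests were chosen with earlier results of these data known. Named are the 6 genes, for each the 5 genes with the highest Pearson r over libraries or over deviations from group means (highest group mean at least 5 CPM, no Gm or Rik names), list genes passing at all 4 stages in an arch contrast, and list genes passing between labels at E10.0. The 16 marker and pathway lists are the pouch, Pax and Nkx2 relatives, thyroid, otic, heart progenitor, heart muscle, branchial muscle, somite, endoderm, epithelium, surface ectoderm, arch mesenchyme, endothelium, red cell, neuron and yolk sac lists.

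Replicate numbers mark the embryo, per the design text. Same-numbered PA1 and PA2 libraries deviated together (median r 0.347 over 33 pairs, 30 of them over 0.1, against -0.131 over 108 other pairs), and a fit with embryo as a block was an alternative. Replicates differed by more than counting noise in all 116 pairs (chi-square per degree of freedom at least 5.84). Other alternatives were added values of 0.25 and 5 CPM, no filter and one of 5 CPM, median-of-ratios scaling, fitting only the compared groups, edgeR 4.0.16 and DESeq2 1.42.0 on recovered reads, and leaving out each library. Leaving out libraries rich in heart muscle, yolk sac or red cell RNA was added after seeing the data.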

Additional observations from a re-analysis of the deposited data

Results flagged for a closer look

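Of 72 combinations of a member with a group of 4 or 5 libraries, 10 held a library far from the others by Dixon's criterion. The members share their libraries and some values lie near the floor. The criterion's nominal rate of about 1 in 20 therefore cannot show whether 10 exceeds chance. Pax8 accounted for 5 of the 10. PA2 replicate 4 of the Hoxa2-/- label at E9.5 held 1.29 CPM of Pax8 against 23.5 to 29.1 CPM in the others, and PA2 replicate 1 of that label at E9.0 held 75.0 CPM against 41.7 to 46.7 CPM. In PA1 the Pax8 values were 4.88 CPM in replicate 3 of the Hoxa2-/- label at E9.0 (others 0.458 to 1.14 CPM), 1.2 CPM in replicate 3 of that label at E10.0 (others at most 0.137 CPM) and 0.0785 CPM, or 1 read, in wildtype replicate 2 at E10.0 (others at 0).

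Nkx2-5 stood at 15.5 CPM in wildtype PA2 replicate 3 at E9.5 against 2.89 to 4.77 CPM in the others. Nkx2-6 stood at 1.67 CPM in wildtype PA1 replicate 1 at E9.0 (others 3.49 to 3.96 CPM) and at 4.03 CPM in PA1 replicate 1 of the Hoxa2-/- label at E9.5 (others 0.493 to 1.22 CPM). Nkx2-3 stood at 10.97 CPM in wildtype PA1 replicate 3 at E9.0 (others 19.1 to 21.5 CPM), and Pax9 at 1.96 CPM in wildtype PA1 replicate 2 at E10.0 (others 0.911 to 1.08 CPM).

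The arch difference itself differed between E9.0 and E10.5 by limma's test of that difference in 6 cases. In wildtype it changed by -3.95 for Pax8, -2.05 for Nkx2-6 and -1.43 for Nkx2-3, and for the Hoxa2-/- label by -3.14 for Pax8, -1.04 for Nkx2-3 and 1.83 for Pax1. For Pax8 and Nkx2-6 PA1 was at or near its floor at E10.5, and tests on recovered reads did not call these changes.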

How the results depend on the processing

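Of 67 single results called, 47 kept their call and direction under every alternative run. Median-of-ratios scaling turned no direction and ended 1 single call, no filter ended 2, and fitting only the compared groups ended 3 and added 3. The number of changes of the arch difference called from E9.0 to E10.5 was 3 in edgeR, against 6 in limma. Several of these changes turned sign: Nkx2-6 in wildtype was 0.12 in edgeR and 0.20 in DESeq2, Pax8 of the Hoxa2-/- label 0.37 in edgeR and 0.78 in DESeq2, and Nkx2-6 of that label 0.62 in edgeR, 0.73 in DESeq2 and 0.013 with 0.25 CPM added. Over all alternatives apart from single libraries left out, Nkx2-6 of the Hoxa2-/- label ranged from -2.09 to 0.73. Pax1 in wildtype was -0.084 with 5 CPM added. The cause was not tested. Without the 10 libraries rich in heart muscle RNA, 15 wildtype arch calls, 15 of the Hoxa2-/- label, 18 time calls and 5 changes of the arch difference were made, and Nkx2-3 between arches of that label at E9.0 was -0.046. Without the 4 rich in yolk sac or red cell RNA these were 18, 18, 20 and 7.

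With embryo as a replicate block (correlation 0.22), limma called 19 wildtype arch differences, 18 of the Hoxa2-/- label, 20 time changes and 8 changes of the arch difference; among the ratios 0 of 16 passed, since few pairs set the smallest p. Apart from the calls gained that the results name, the block changed no call in limma. Leaving out 1 library at a time gave 17 to 19 arch calls for each label, 0 to 1 between labels in PA2, 0 in PA1 and for the difference of both, 19 to 21 over time, 4 to 7 changes of the arch difference and 7 to 10 ratios. Depth limits Pax8 in PA1 from E10.0 and in wildtype PA2 at E10.5, and Nkx2-6 in PA1 from E10.0. Libraries there held 0 to 20 reads of the gene. Pax8 held 0 to 100 reads in PA1 at E9.0 and E9.5. In PA2 of the Hoxa2-/- label at E10.5 it held 7 to 72 reads.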
